A study of Mus musculus with 2 samples.

Results

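The 38 genes described here mark the cells that line the ventricles of the brain: 10 are known from the choroid plexus epithelium and 28 from motile cilia. They are 38 of 55536 gene rows in the deposited tables. They were chosen by what they are known to mark, at a time when their levels in these 2 libraries, and above all the difference in Ttr between them, were already known. All values of the members are therefore descriptions, with no test. By symbol, 36 of the 38 were found in the tables, and the other 2 under an older name (Dnai1 as Dnaic1, Dnai2 as Dnaic2).

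Total RNA was sequenced from 2 male mice of the strain B6CASTF1/J, the first-generation hybrid of C57BL/6J and CAST/EiJ, aged 2 months, with the left cerebral cortex as the tissue; the labels name no treatment. Each library was made from 300 ng of RNA after removal of ribosomal RNA and with ERCC spike-in RNAs added. Both mice belong to 1 group, and the labels number them replicate 1 and replicate 2 and list them as separately numbered males. The tissue is whole cortex, so every value is an average over all cells in the piece. No condition is compared: the data show at what level each gene was found and how far the animals differed. That difference rests on 1 animal against 1, so nothing replicates it and no p is given.

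The choroid plexus is a folded epithelium inside the ventricles that secretes cerebrospinal fluid, and its cells make transthyretin (Ttr), ion and water transporters and tight junction proteins in large amounts. The ventricle walls are lined by ependymal cells, whose tufts of motile cilia move that fluid. A motile cilium is built around outer microtubule doublets and a central pair, bent by dynein motor arms and regulated through radial spokes. Its genes are switched on by the transcription factor Foxj1 together with factors of the RFX family, which bind a promoter element called the X-box.

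Promoters of the members were looked up because so many of them code for parts of 1 machine. The RefSeq table of promoters (GRCm38.p6, the mm10 build, 300 bases each, from 250 before to 50 after a start site) held 30 of the 38 members: 6 of 10 choroid plexus genes and 24 of 28 motile cilia genes. Ttr, Folr1, Clic6, Sostdc1, Foxj1, Rsph1, Rsph4a and Cfap54 were not matched. The X-box motif, searched by its consensus on both strands, was found in 5 of the 24 motile cilia genes and in 0 of the 6 choroid plexus genes, against 1.53% of all 32851 promoters and 1.75% of the 27025 genes that they belong to (the count per gene is the one that matches the members). The 5 stretches are printed here, and their matches are alike because all were found by the same consensus. Each is written 5′ to 3′ on the gene's own strand, which is the plus strand for all of them, with the match in capitals and up to 20 bases on each side, ending before the start site.
Spag16, central pair, chr1:69826847-69826900: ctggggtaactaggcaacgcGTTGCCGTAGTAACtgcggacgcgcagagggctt
Dnai1, outer dynein arm, chr4:41569755-41569793: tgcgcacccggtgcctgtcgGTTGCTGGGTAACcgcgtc
Hydin, central pair, chr8:110266936-110266976: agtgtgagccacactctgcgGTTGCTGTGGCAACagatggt
Dnai2, outer dynein arm, chr11:114727366-114727418: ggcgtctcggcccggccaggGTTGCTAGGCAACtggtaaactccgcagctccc
Cfap44, doublet-bound complex, chr16:44394752-44394798: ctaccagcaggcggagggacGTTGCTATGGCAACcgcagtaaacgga

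The matches lie close to the RefSeq start site: their centres were 12.5 bases upstream in Dnai1, 14 in Hydin, 20 in Cfap44, 26.5 in Dnai2 and 96 in Spag16. The short half-site GTTGCC was present, on either strand, in 10 of the 24 motile cilia promoters and 1 of the 6 choroid plexus promoters, against 12.5% of all promoters and 14.1% of genes. It overlaps the X-box match in all of the 5 genes except Dnai1. The forkhead core TGTTTAC was present in 3 motile cilia promoters (Ak7, Cfap43 and Mlf1) and 1 choroid plexus promoter (Prlr), against 3.65% of all promoters and 4.05% of genes. The homeobox site TAATCC, of the kind bound by Otx2, was present in 3 motile cilia promoters and in 0 choroid plexus promoters, against 7.06% of all promoters and 8.14% of genes. A match is a string of letters and says nothing of whether a factor binds there. The 5 genes with an X-box match had mean levels from 0.210 ± 0.0141 TPM (Hydin) to 3.44 ± 0.205 TPM (Dnai1), and Ccdc39, Cfap54, Rsph9 and Rsph1 were higher than any of them.

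Levels are given as deposited TPM (a unit that corrects for transcript length), each value from 1 library or as mean ± SD over the 2 animals, and a gene was called detected at 1 TPM or more in both libraries. The libraries held 33007629 (replicate 1) and 32142918 (replicate 2) expected counts, so that a gene with 0 counts may still stand at up to 0.0913 and 0.0937 CPM, by counting error only. Differences are log2 ratios of replicate 2 over replicate 1 for genes whose counts averaged 10 or more, with 95% Clopper-Pearson intervals that cover counting error only. A difference beyond counting error is one whose interval excludes 0. Such calls were common: of 18490 genes measured, 10.6% were higher and 12.2% lower in replicate 2 beyond counting error, while 1.11% were at least 2-fold higher and 0.687% at least 2-fold lower.

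**Figure D1:**
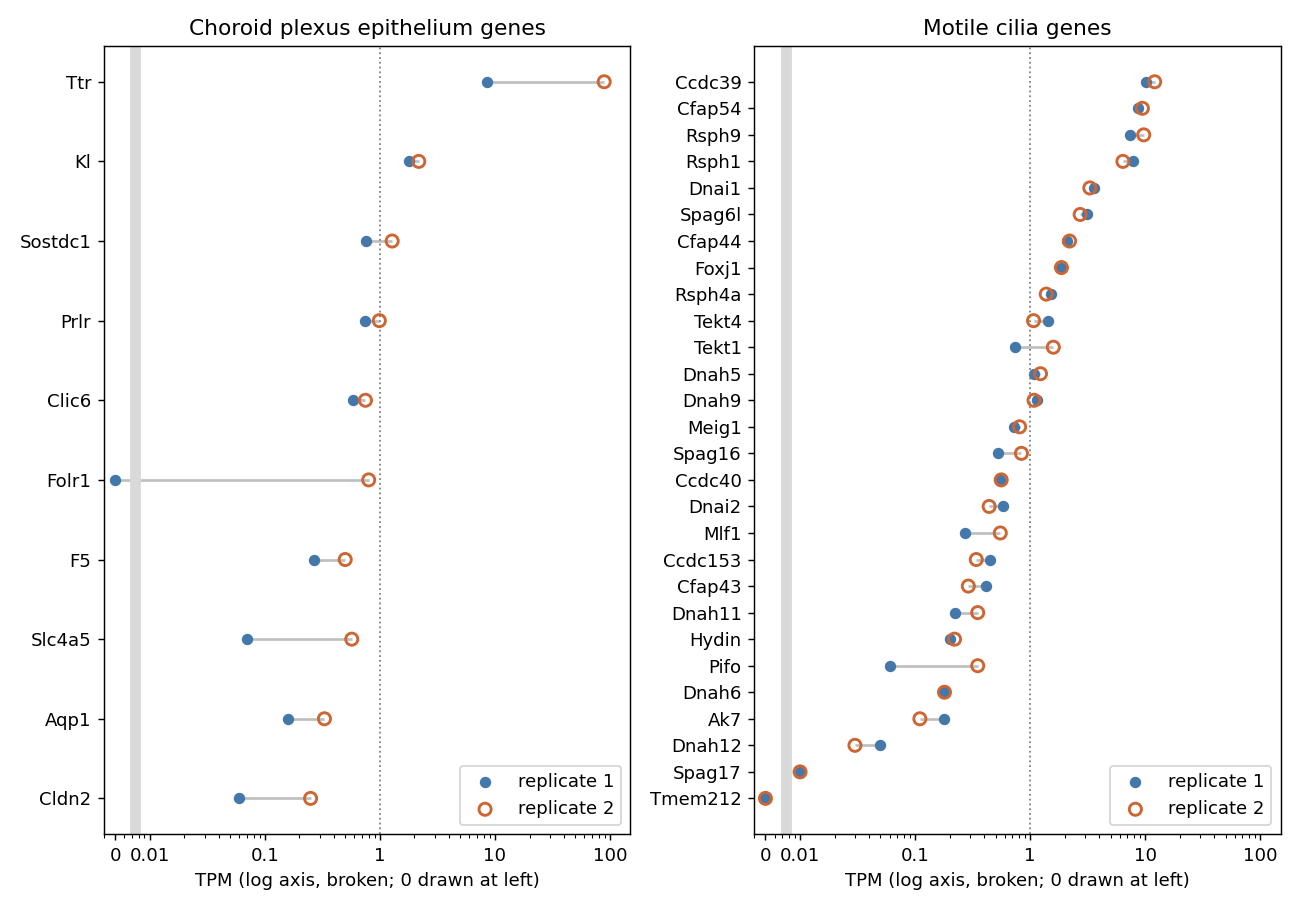
Deposited TPM of each of the 38 genes in replicate 1 (filled) and replicate 2 (open), on a broken log axis with 0 drawn left of the grey bar and a dotted line at 1 TPM. Replicate 2 lies to the right for all 10 choroid plexus genes, while most motile cilia genes have points close together, from 0 in both libraries (Tmem212) to 10.1 and 12.1 TPM (Ccdc39).

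As a check of the labels, the cortical excitatory neuron markers (6 genes, among them Slc17a7 and Camk2a) summed to 2661 and 2744 TPM. Of the defining choroid plexus markers, Ttr, Kl and the potassium channel gene Kcnj13 (2.00 and 2.36 TPM) were detected in both libraries. Folr1 and the transcription factor gene Otx2 (0.07 and 0.38 TPM, 3 and 12 counts) were not. Of the defining motile cilia markers, Foxj1 and Rsph1 were detected and Ccdc153 was not. Apart from Ttr, none of these 8 markers reached 8 TPM in either library.

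All 10 choroid plexus genes had a higher TPM in replicate 2, and Ttr by far the most. For 6 of the 9 measured the difference was beyond counting error, beside 10.6% of all genes higher in this way. Slc4a5 and Cldn2 among those 6, and Aqp1 outside them, passed the count minimum through replicate 2 alone, so the filter fixed their direction. The 10 genes summed to 13.0 TPM in replicate 1 and 96.8 TPM in replicate 2. Ttr, the carrier of thyroxine and of the retinol-binding protein in cerebrospinal fluid, made up 65.8% of that sum in replicate 1 and 92.1% in replicate 2. Without Ttr the other 9 genes summed to 4.46 and 7.65 TPM, a ratio of 1.72, or 447 and 607 counts. In bulk RNA a difference in the number of cells of a type and a difference in RNA per cell cannot be told apart.

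Ttr (ENSMUSG00000061808.4, a single annotated transcript) stood at 8.58 TPM in replicate 1 and 89.2 TPM in replicate 2, from 203 and 2071 counts. Its scaled level was 10.3-fold higher in replicate 2, a log2 ratio of 3.37 (3.17 to 3.59). The other quantification, a second deposited transcript table made directly from reads, gave a log2 ratio of 3.32. Ttr had the narrowest counting interval of the choroid plexus genes, and its lowest log2 ratio under the settings tried was 3.23.

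The transporters, which move ions and water across the epithelium, were low. Slc4a5, the sodium bicarbonate cotransporter of the epithelium (chromosome 6, 83219828 to 83304945), had 0.07 and 0.57 TPM from 2 and 20 counts. Transcripts annotated as not coding held 85.7% and 71.9% of its TPM (90.5% and 30.7% in the other quantification). Its coding transcripts had 0.01 and 0.16 TPM, from 1.13 and 17.0 counts. The log2 ratio of the gene, which the prior count pulls towards 0 at so few counts, was 2.48, or 5.58-fold. The plain ratio of the scaled counts was 10.2, with a counting interval of 2.48 to 89.95. Clic6, a chloride channel family gene, was at 0.59 and 0.75 TPM, 47 and 59 counts, with a log2 ratio of 0.34 (-0.22 to 0.94). The water channel gene Aqp1 had 0.16 and 0.33 TPM from 9 and 18 counts, a log2 ratio of 0.89 (-0.20 to 2.37). Only Slc4a5 among these transporters differed by more than counting error.

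Cldn2, the claudin of leaky tight junctions, lies on the X chromosome (139800828 to 139811386) and had 0.06 and 0.25 TPM from 4 and 16 counts. Its log2 ratio was 1.61 (0.40 to 4.07). Folr1, the folate receptor that carries folate into cerebrospinal fluid, was listed at 0 in replicate 1 and at 0.80 TPM, or 11 counts, in replicate 2. It missed the count minimum. After scaling, its 11 counts are 3.74 times the 3 counts that a count of 0 allows in 1 library, and the lower limit of the counting interval is a 2.56-fold ratio.

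The remaining members are hormone receptors and secreted proteins, which epithelial cells display or release. Kl (klotho, a co-receptor for a fibroblast growth factor) was at 1.80 and 2.18 TPM from 197 and 235 counts, with a log2 ratio of 0.28 whose interval, 0.003 to 0.56, barely excludes 0. Prlr, the prolactin receptor, was at 0.75 and 0.99 TPM from 117 and 124 counts, with a log2 ratio of 0.11 (-0.27 to 0.49). These are the best counted choroid plexus genes after Ttr, and the interval of Prlr reaches no further than a 1.40-fold ratio of scaled counts. F5, coagulation factor V, was at 0.27 and 0.50 TPM from 43 and 78 counts, with a log2 ratio of 0.86 (0.33 to 1.46). Sostdc1, a secreted inhibitor of BMP and WNT signalling, was at 0.76 and 1.28 TPM from 28 and 46 counts, with a log2 ratio of 0.70 (0.04 to 1.48).

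**Figure D2:**
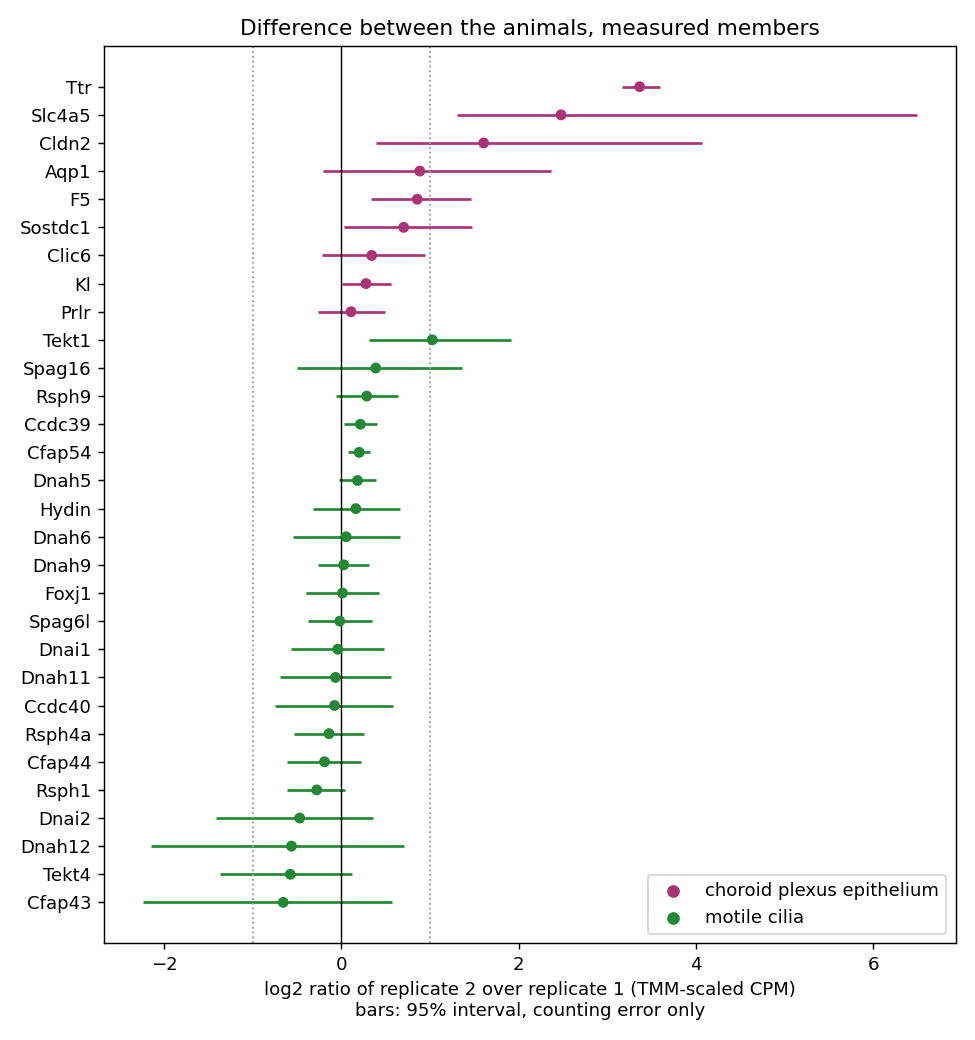
Log2 ratio of replicate 2 over replicate 1 for the 30 members whose counts averaged 10 or more, with bars for the 95% counting interval and dotted lines at 2-fold. The 9 choroid plexus genes lie at 0.11 to 3.37 and the 21 motile cilia genes at -0.66 to 1.03.

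In counts, 3 of the 9 measured choroid plexus genes were at least 2-fold higher in replicate 2 (Ttr, Slc4a5 and Cldn2), beside 1.11% of all genes, and 0 were 2-fold lower. Beyond counting error 6 were higher, beside 10.6% of all genes, 0 were lower and 3 were within it. The median log2 ratio was 0.86, against -0.003 over all genes. The choroid plexus median includes Slc4a5, Cldn2 and Aqp1, whose direction the filter fixed, and it was 0.28 at a minimum of 100 counts. The 1.11% is a share over genes of all depths. Genes at least 2-fold higher lay mostly at low counts, with 206 at the minimum of 10 and 12 at a minimum of 100. Slc4a5 and Cldn2 averaged 11 and 10 counts. Slc4a5, Cldn2 and Aqp1 had fewer than 10 counts in replicate 1 and passed the minimum through replicate 2 alone, so their direction was fixed by the filter. Ttr, Clic6, Prlr, Kl, F5 and Sostdc1 had 10 counts or more in both libraries. Of these, Ttr, Kl, F5 and Sostdc1 were higher beyond counting error, and only Ttr was at least 2-fold higher. The spread within the list was wide, with a ratio of Ttr to Kl of 4.77 in replicate 1 and 40.9 in replicate 2 but a ratio of Kl to Prlr of 2.40 and 2.20.

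Ttr, Slc4a5 and Cldn2 also led a search limited to named coding genes without shared reads. Of 13777 named coding genes without shared reads, 12 (0.0871%) were at least 2-fold higher in replicate 2 in both quantifications and beyond counting error, and these 3 had the highest log2 ratios of the 12. In the other direction 36 genes (0.261%) passed, none of them a member. That search was made after the members' values were known and describes only their rank. The count minimum favoured a large upward ratio for Slc4a5 (2 and 20 counts) and Cldn2 (4 and 16 counts), which passed it through replicate 2 alone, but not for Ttr.

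**Figure D3:**
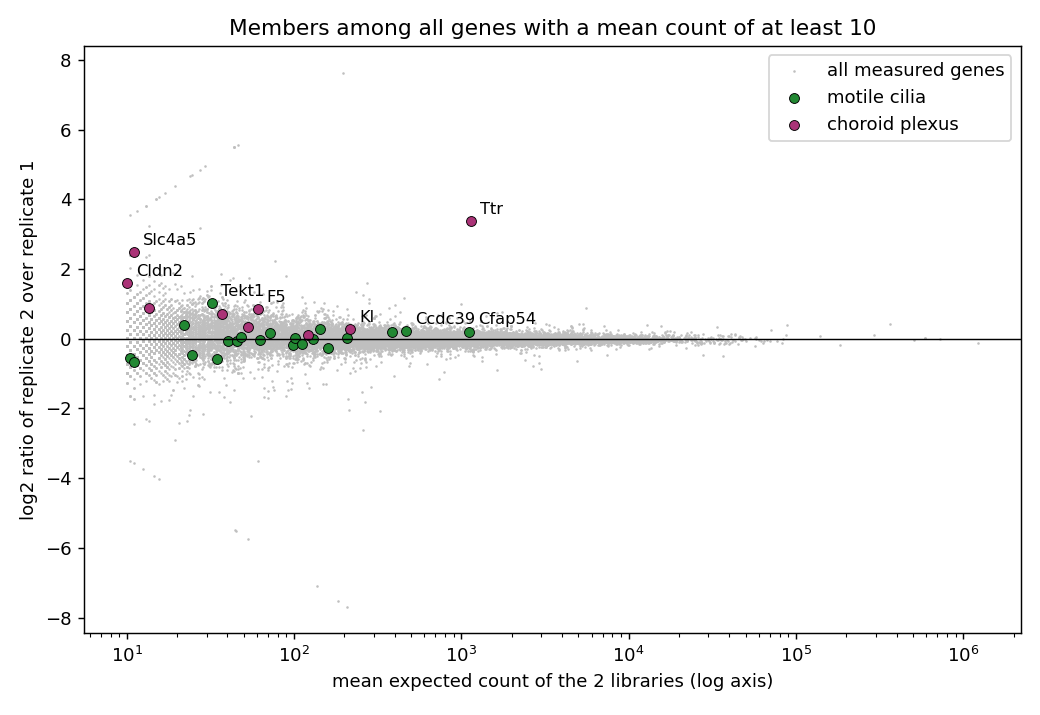
Log2 ratio of replicate 2 over replicate 1 against the mean count (log axis) for 18490 genes (grey), with measured members coloured and some named. Ttr, at a mean count of 1137 and a log2 ratio of 3.37, stands above the genes of like count, and the motile cilia genes lie along 0.

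A further 30 genes known from the choroid plexus were read for comparison. Of these, 22 were measured, 14 higher and 8 lower in replicate 2, with a median log2 ratio of 0.14. Only 1 was at least 2-fold higher, Ecrg4, at 0.57 and 1.28 TPM from 10 and 22 counts, beside 1.11% of all genes. Beyond counting error 4 of the 22 were higher and 0 lower, beside 10.6% and 12.2% of all genes. The most abundant were Enpp2 (87.0 and 109.1 TPM), Igf2 (47.9 and 53.0 TPM) and Igfbp2 (33.3 and 31.5 TPM), which other brain cells and the meninges also express. The 8 genes below the count minimum are given apart. They include Otx2, Kcne2 (1 and 9 counts), Calml4 (1 and 8) and the keratin gene Krt8 (0 and 5), and 7 of the 8 had more scaled counts in replicate 2, the last, Lmx1a, being at 0 in both. Together these 8 genes held 9 counts in replicate 1 and 48 in replicate 2, a scaled ratio of 5.44 with a counting interval of 2.64 to 12.6. Their sum was taken after the values were seen.

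Markers of other regions and cell types also differed between the animals, and none of those listed next was at 0 in both libraries. Over all genes, 10.6% were higher and 12.2% lower beyond counting error. The 8 striatal neuron genes were all lower in replicate 2 beyond counting error, from 312 to 172 TPM in sum and with a median log2 ratio of -1.02. The 6 hippocampal genes went from 75.6 to 62.1 TPM, all 6 lower and 4 of them beyond counting error. Most of that sum was 1 gene, Wfs1, at 62.9 and 52.2 TPM. The 5 red blood cell genes went from 463 to 379 TPM, 4 of them lower beyond counting error. The 8 meningeal fibroblast genes summed to 1095 and 1162 TPM (median 0.02, 3 higher and 1 lower beyond counting error), of which Ptgds held 1049 and 1117 TPM, and the other 7 summed to 45.6 and 45.5 TPM. The 6 endothelial genes summed to 111 and 114 TPM (median 0.04, 1 higher and 1 lower) and the 6 astrocyte genes to 395 and 383 TPM (median -0.06, 0 higher and 3 lower). The part of these tissues in the choroid plexus difference was not tested.

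The motile cilia genes were at similar levels in both animals. The 28 genes summed to 55.0 and 59.2 TPM (57.1 ± 2.97), and 12 of them were detected. Of the 21 measured, 10 were higher and 11 lower in replicate 2, with a median log2 ratio of -0.02 (17 were higher under spike-in scaling, which moves the median of all genes to 0.32). Among the 11 lower, Dnah12 and Cfap43 passed the count minimum through replicate 1 alone, so the filter fixed their direction. Only Tekt1 was at least 2-fold higher, 3 genes were higher beyond counting error (Ccdc39, Cfap54 and Tekt1), 0 were lower and 18 were within it. Over all genes the shares at least 2-fold higher, higher beyond counting error and lower beyond it were 1.11%, 10.6% and 12.2%.

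Foxj1, the master regulator of motile cilia (chromosome 11, 116330704 to 116335399, minus strand), was at 1.86 and 1.87 TPM from 102 and 101 counts. Its log2 ratio was 0.01 (-0.40 to 0.43), so a 2-fold difference in either direction lies outside its counting interval. Among a further 50 cilia genes, the regulators acting before or beside it included Mcidas (12 and 8 counts), Gmnc (18 and 18) and Ccno (37 and 35). Of the family that binds the X-box, Rfx3 was far higher, at 32.2 and 33.7 TPM, but Rfx2 was at only 1.34 and 0.97 TPM.

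The outer dynein arms carry the motors that drive the beat. Their heavy chain genes Dnah5 and Dnah9 were at 1.08 and 1.23 TPM and at 1.14 and 1.08 TPM, from 366 and 408 and from 208 and 208 counts. Their ratio of Dnah5 to Dnah9 was 1.04 ± 0.135. Dnah11, a heavy chain of the same type as Dnah9, was lower at 0.22 and 0.35 TPM, from 47 and 44 counts. Of that, 72.7% and 88.2% lay in transcripts annotated as not coding, among them a nonsense-mediated decay form, which leaves 0.06 and 0.04 TPM as coding. Log2 ratios between the animals were 0.18 (-0.02 to 0.39), 0.03 (-0.26 to 0.31) and -0.07 (-0.69 to 0.56) for Dnah5, Dnah9 and Dnah11.

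Dnai1 and Dnai2 code for intermediate chains that form a pair at the base of the outer arm, but their gene levels were unequal. Dnai1 was at 3.59 and 3.30 TPM (64 and 61 counts) and Dnai2 at 0.58 and 0.44 TPM (29 and 20 counts). The ratio of Dnai1 to Dnai2 was 6.19 in replicate 1 and 7.5 in replicate 2, and 5.76 ± 0.446 when only coding transcripts were taken. That inequality rested on short or intron-retaining forms: the full-length coding form Dnaic1-201 was at 0.34 and 0.39 TPM, beside 0.34 and 0.28 TPM for all coding forms of Dnai2, and most coding TPM of Dnai1 came from the 500-base form Dnaic1-202 with 13.2 and 11.2 counts. Neither differed between the animals beyond counting error, with log2 ratios of -0.04 and -0.47. The members that code for inner arm heavy chains were low: Dnah6 was at 0.18 TPM in both libraries (48 and 49 counts) and Dnah12 at 0.05 and 0.03 TPM (13 and 8 counts), with log2 ratios of 0.06 and -0.56. Dnah12 reached the minimum through replicate 1 only. Heavy chain genes outside the 38 were unequal. Dnah7a (3.13 and 3.01 TPM), Dnah1 (2.46 and 2.02 TPM) and Dnah2 (1.81 and 1.62 TPM) were higher than Dnah6. Dnah10 (0.17 and 0.16 TPM) and Dnah3 (0.06 and 0.04 TPM from 8 and 7 counts) were about as low as Dnah6 and Dnah12.

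Of the radial spoke genes, Rsph1 and Rsph9 were among the highest of the list and Rsph4a was not. Rsph1 (chromosome 17, 31255019 to 31277383) was at 7.88 and 6.40 TPM from 177 and 143 counts, and Rsph9, a little further along the same chromosome (46122035 to 46144216), at 7.38 and 9.71 TPM from 130 and 156 counts. Rsph4a was at 1.53 and 1.38 TPM from 118 and 105 counts. All 3 proteins belong to the spoke head, yet Rsph1 exceeded Rsph4a by 4.89 ± 0.363 times and Rsph9 exceeded it by 5.93 ± 1.57 times in TPM. The counting intervals of their differences between the animals all include 0, at log2 ratios of -0.28 for Rsph1, 0.29 for Rsph9 and -0.14 for Rsph4a. The order of Rsph1 and Rsph9 turned between the libraries, so neither can be called the higher of the pair.

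Ccdc39 and Ccdc40 code for the paired coiled-coil proteins that set the spacing of the arms and spokes along the doublet. Ccdc39 (chromosome 3, 33812362 to 33844310, minus strand) was the highest cilia gene at 10.1 and 12.1 TPM from 435 and 496 counts, with a log2 ratio of 0.22 (0.03 to 0.41). Ccdc40 was at 0.55 and 0.56 TPM from 42 and 39 counts, with a log2 ratio of -0.08. As deposited, the ratio of Ccdc39 to Ccdc40 was 20.01 ± 2.23, and 22.6 ± 2.73 in the other quantification. When only transcripts annotated as coding were taken it fell to 8.16 ± 1.51. The remaining transcripts are annotated as not coding, which here covers retained introns, processed transcripts and nonsense-mediated decay forms.

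For Ccdc39 these other forms took up 71.3% and 76.4% of its TPM in replicates 1 and 2. By the other quantification the shares were 62.4% and 76.0%. All 5 are retained-intron forms. The difference between the animals lay in them alone: the coding transcript Ccdc39-201 had 222 and 214 counts, the retained-intron forms together 213 and 282 counts. Ccdc39 also overlaps the antisense gene Ttc14 over 16.9% of its exonic bases, and Ttc14 was more abundant, at 35.6 and 40.5 TPM. Whether the counting used strand is not given in the sources used here, and without strand the reads of Ccdc39 and Ttc14 in that overlap cannot be told apart. The level of Ccdc39, and its ratio to Ccdc40, are uncertain to that extent.

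**Figure D4:**
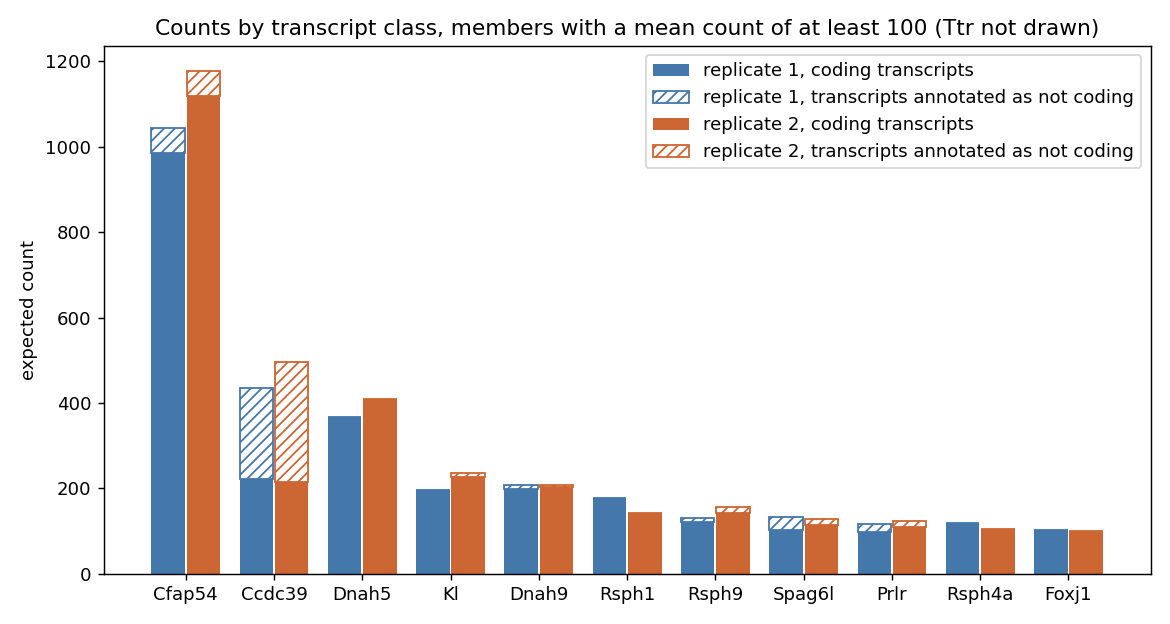
Expected counts of the members averaging 100 counts or more other than Ttr, split into transcripts annotated as coding (solid) and as not coding (hatched), for replicate 1 (blue) and replicate 2 (orange). In Ccdc39 the hatched part is 213 and 282 counts of 435 and 496, while in Cfap54 it is 56.5 and 57.3 of 1043 and 1177.

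The central pair is a second example of unequal levels. Cfap54 (chromosome 10, 92775619 to 93081618, minus strand), a large central pair protein, was at 8.58 and 9.45 TPM from 1043 and 1177 counts, the most counts of any cilia member. Its log2 ratio of 0.20 (0.08 to 0.32) excludes 0 yet is only a 1.15-fold difference. Hydin, the giant protein of a central pair projection, was at 0.20 and 0.22 TPM from 68 and 75 counts, with a log2 ratio of 0.16. The ratio of Cfap54 to Hydin was 42.9 in replicate 1 and 42.95 in replicate 2, and 28.9 ± 1.72 in the other quantification. Hydin TPM is given to 2 decimals only, so the closeness of the replicates is no measure of precision. Part of the ratio rested on shorter forms of Cfap54. Its long coding forms Cfap54-211 and Cfap54-207 were at 2.79 and 3.21 TPM and at 1.75 and 2.08 TPM. Spag6l was at 3.13 and 2.72 TPM (132 and 128 counts) and Spag16 at 0.53 and 0.84 TPM (19 and 25 counts), with log2 ratios of -0.02 and 0.39. Transcripts annotated as not coding held 72.2% and 92.9% of the TPM of Spag16, which leaves 0.15 and 0.06 TPM as coding. Its log2 ratio was 0.009 in the other quantification. Spag17, which also belongs to the central pair, had 2 counts in each library.

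Cfap43 and Cfap44 form a complex that ties inner arm dyneins to the doublet. Cfap44 was at 2.08 and 2.20 TPM from 106 and 91 counts and Cfap43 at 0.41 and 0.29 TPM from 14 and 8 counts, with log2 ratios of -0.19 and -0.66, both within counting error. Cfap43 reached the count minimum through replicate 1 only, so the filter fixed its direction. The ratio of Cfap44 to Cfap43 was 6.33 ± 1.78, and 3.58 ± 1.45 when only coding transcripts were taken. Transcripts annotated as not coding held 75.4% and 79.2% of the TPM of Cfap44, so the coding level was 0.51 and 0.46 TPM.

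Tektins are filaments inside the doublet wall. Tekt1 was at 0.74 and 1.59 TPM from 21 and 44 counts, a log2 ratio of 1.03 (0.31 to 1.92) that was 0.57 in the other quantification. Tekt4 was at 1.43 and 1.07 TPM from 42 and 27 counts, with a log2 ratio of -0.58 (-1.36 to 0.12). The difference in Tekt4 was within counting error.

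Of the 28 cilia genes, 7 were below the count minimum: Ccdc153, Tmem212, Spag17, Mlf1, Pifo, Ak7 and Meig1. Tmem212, an ependymal marker, had 0 counts in both libraries, and the others had between 1 and 9 counts per library. Summed, they held 32 and 37 counts, a scaled ratio of 1.18 (0.714 to 1.95). Ccdc153 depended on the quantification, with 8 and 5 counts and 0.45 and 0.34 TPM in the gene table but 31 and 38 counts and 5.12 and 6.11 TPM in the other. There 79.9% and 81.6% of its TPM came from transcripts annotated as not coding. Pifo, with 1 and 6 counts, had a scaled ratio of 6.12 whose counting interval runs from 0.742 to 281.

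The transcript tables give a view of the members that averaged 100 counts or more. Ttr, Foxj1, Rsph4a and Dnah5 have 1 annotated transcript each. In Kl the coding transcript Kl-201 held 99.4% and 96.8% of TPM, the rest being a retained-intron form that rose to 8.39% and 14.1% in the other quantification. In Rsph9 the form Rsph9-201 led with 85.4% and 74.1%. Forms of Rsph1 could not be ranked: Rsph1-201 led in the main tables with 55.3% and 59.1%, but Rsph1-203 led in the other quantification with 74.3% and 78.7%. In Cfap54 the coding forms Cfap54-211 (32.5% and 34.0%) and Cfap54-207 (20.4% and 22.0%) were the highest in the main tables. Forms annotated as not coding held 22.8% and 19.2% of Cfap54, 21.1% and 22.9% of Dnah9 and 40.0% and 22.2% of Prlr. In Spag6l they held 35.1% and 15.4%, and 71.7% and 56.4% in the other quantification.

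The further 50 genes of motile cilia, among them more dynein, docking and assembly genes, also had a median near 0. Of 38 measured, 21 were higher and 17 lower in replicate 2, at a median log2 ratio of 0.02, and 0 were 2-fold different in either direction. Their sum was 180.6 and 182.9 TPM. The 3 most abundant were Dnal1 (40.0 and 41.7 TPM), Rfx3 and Tppp3 (17.4 and 15.9 TPM). Only 1 of the 38 was higher beyond counting error and 0 were lower, beside 10.6% and 12.2% of all genes. Over all genes 1.11% were at least 2-fold higher and 0.687% at least 2-fold lower. The 12 genes below the count minimum, 9 with more and 3 with fewer scaled counts in replicate 2, held 45 and 62 counts together, a ratio of 1.40 (0.941 to 2.11).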

How the data were processed

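Levels were read from the deposited gene tables of 2 libraries, 1 per animal. Expected counts (estimated reads per gene, often with decimals) and TPM were made by the authors from a transcriptome alignment on mm10 with GENCODE M21, per the file headers and the notes beside them. The other quantification is a deposited transcript table with estimated counts and TPM, which its description derives straight from 1 file of reads. Transcripts of the CAST/EiJ genome copy were counted against the C57BL/6J build, and what mismatches did to the counts is not known. Aligner and quantifier: not given in the sources used here. The deposited posterior SD of the count, read as a signal without fixed scale, marked genes with shared reads where it was above 5% of the count, and 0 members were so marked. The deposited percent of each gene held by a transcript was recomputed from TPM.

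Expected counts were rounded to whole numbers. The 18490 genes averaging 10 counts or more were compared with TMM-normalised CPM and a prior count of 2 (edgeR 4.0.16, R 4.3.3). Rows that name no gene (26249 rows, 1.78e-05% and 2.48e-05% of counts) and 96 spike-in rows (0.428% and 0.345%) stayed out. Other columns of per-sample values, which would have been left out, numbered 0. The ratio and interval were also run on simulated data, whose outcome is not given here. The simulated counts held counting error only, so that run cannot show how the interval behaves under any further spread between libraries. The chi-square per gene between the libraries was 6.46, so they are separate libraries. Whether the spread is biological or technical cannot be told from 1 library per animal.

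Named were every member and, of the other lists, the 3 highest by mean TPM and the most different one. Genes outside that rule (low-count choroid plexus genes, cilia regulators, defining markers) were chosen after their values were seen. The members and lists were chosen with earlier results of these data known. Alternatives were scaling by spike-ins or by DESeq2 1.42.0, a prior count of 0.5, log2 TPM with 1 or 0.1 added, other count minimums, the other quantification, leaving out genes with shared reads and leaving out each animal.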

Additional observations from a re-analysis of the deposited data

How the results depend on the processing

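Of 180 recomputed log2 ratios of members, under settings able to move them, 171 stayed within the counting interval of the reported value and 9 left it. The sign changed in 0 of the 54 choroid plexus ratios and in 19 of the 126 cilia ratios, in 9 genes whose counting interval includes 0 (Ccdc40, Cfap44, Dnah9, Dnah11, Dnai1, Foxj1, Rsph1, Rsph4a and Spag6l). The 54 include ratios of Slc4a5, Cldn2 and Aqp1, and the 126 include ratios of Dnah12 and Cfap43. The count minimum fixed the direction of these genes, so their unchanged sign is no support. Spike-in scaling moved the whole table, whose median log2 ratio went from -0.003 to 0.32, so changes under it are read against that shift: the choroid plexus median became 1.16 and the motile cilia median 0.30, or 0.85 above and 0.015 below that of the whole table, and 17 instead of 10 cilia genes had a positive sign. Under it 563 genes were at least 2-fold higher and 70 lower (206 and 127 as reported), with 6 choroid plexus members higher instead of 3. TPM with a pseudocount of 1, which shrinks low genes, gave 38 and 42 genes, 1 choroid plexus member (Ttr), 0 cilia members and a choroid plexus median of 0.24, and a pseudocount of 0.1 gave 0.70. Without a count minimum 1333 genes were higher and 625 lower, with 2 cilia members. A minimum of 100 left 12 and 17 genes, 1 choroid plexus member, 0 cilia members and a choroid plexus median of 0.28. The other quantification gave 318 genes higher, 0 cilia members (Tekt1 fell to 0.57) and a choroid plexus median of 0.69. Leaving out genes with shared reads left 70 genes lower. Over all settings Ttr ranged from 3.23 to 3.69, Slc4a5 from 0.55 to 3.06 and Cldn2 from 0.24 to 1.90. The causes were not tested, apart from the fewer genes that a minimum leaves.

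Detected choroid plexus members numbered 7 at 0.1 TPM, 8 at 3 counts, 4 in the other quantification and 5 by CPM, instead of 2. Detected cilia members numbered 24 at 0.1 TPM and 25 at 3 counts, instead of 12. The mean choroid plexus sum was 86.0 TPM in the other quantification instead of 54.9 (21.1 and 150.9 in the 2 animals). The cilia sum was 96.9 TPM in the other quantification, 103.4 as CPM and 36.9 TPM without Ccdc39 and Cfap54 (an alternative chosen after seeing the data). With 1 animal alone the choroid plexus sum was 13.0 to 96.8 TPM and the cilia sum 55.0 to 59.2. No paired analysis was possible because there is 1 group and no comparison between groups.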

Other observations

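Among the 36 named coding genes at least 2-fold lower in replicate 2 in both quantifications were several known from cholinergic neurons of the basal forebrain, chosen here after their values were seen. Chat, the acetylcholine-making enzyme, had 40 and 6 counts, and the vesicular transporter gene Slc18a3 had 39 and 17. The choline transporter gene Slc5a7 had 113 and 39 counts, and the transcription factor genes Lhx8 and Gbx1 had 26 and 6 and 23 and 3. Their log2 ratios ran from -2.37 for Chat to -1.08 for Slc18a3. The same 36 include the striatal genes Drd2 (344 and 80 counts), Adora2a (415 and 115) and Tac1 (418 and 157). The direction of all these genes was fixed by how they were picked, and no list of cholinergic genes was drawn up beforehand.

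Tmem72, a choroid plexus gene, had 25 and 46 counts in the gene table and 2364 and 3159 in the other quantification, so its level depends on the table used.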
